A study of Mus musculus with 6 samples.

Results

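The 37 genes of the mouse mitochondrial genome (13 mRNAs, 2 rRNAs and 22 tRNAs) were followed in activated CD8+ T cells that received sphingosine-1-phosphate (S1P), a lipid ligand of the receptor S1PR1, or vehicle. They were chosen by symbol, as every gene whose name begins with mt-, and all 37 were among the 56941 identifiers of the count table. The design held 3 libraries of vehicle-treated and 3 libraries of S1P-treated cells, labelled as biological replicates 1 to 3 of each group, and it asks how exogenous S1P changes the transcripts of these cells. Naive CD8+ T cells purified from the spleens of B6 mice were stimulated on plate-bound anti-CD3 and anti-CD28 with rIL2 (100 U/ml). The labels give purified cells, and the methods of the study also name total splenocytes as an alternative. S1P (5 µM) or vehicle entered the culture at 24 h, and RNA was taken after 3 days. The age and number of the mice, and whether replicates came from separate animals or cultures, are not given in the sources used here, so p-values measure the spread between these libraries.

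Mitochondrial DNA is transcribed from both strands into long precursors that carry the rRNAs, the mRNAs and the tRNAs end to end. The tRNAs are cut out by RNase P at the 5′ end and by ELAC2 at the 3′ end, which frees the rRNAs and most mRNAs for polyadenylation. The mRNAs encode core subunits of respiratory complexes I, III and IV and of ATP synthase, the rRNAs and tRNAs serve the mitochondrial ribosome, and activated T cells are known to build up mitochondria as they begin to divide.

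Part of this genome has a nearly identical copy in the nucleus, and the counts differed sharply between the genes inside and outside it. In GRCm39, bases chrM:6390-11042 aligned to chr1:24650616-24655269 over 4654 aligned positions at 99.936% identity, with 2 mismatches and 1 gap. This was the longest of 14 nuclear copies of at least 100 bases and 90% identity. The stretches that distinguish copy and mitochondrial sequence are shown because they are nearly all that a read from these genes could be told apart by. Both are written in the direction of the mitochondrial gene, with the base that differs in capitals. The first, at chrM:9441-9481, spans the start of mt-Nd3, where T9461C (position counted from 1 on chrM, mitochondrial base first) falls on the third base of the gene. The other, at chrM:9809-9848, lies in mt-Tr, where the copy holds an additional base.
mt-Nd3 start, mitochondrial: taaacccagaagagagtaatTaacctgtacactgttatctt
mt-Nd3 start, chromosome 1 copy: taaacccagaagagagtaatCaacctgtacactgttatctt
mt-Tr, mitochondrial: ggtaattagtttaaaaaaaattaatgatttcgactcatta
mt-Tr, chromosome 1 copy: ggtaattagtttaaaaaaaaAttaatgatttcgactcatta
The remaining mismatch, A6393T, lies within mt-Co1. The copy contained 11 genes whole: the 6 mRNAs mt-Co2, mt-Atp8, mt-Atp6, mt-Co3, mt-Nd3 and mt-Nd4l and the 5 tRNAs mt-Ts1, mt-Td, mt-Tk, mt-Tg and mt-Tr. It also held 63.6% of mt-Nd4 and 31.3% of mt-Co1.

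The results on tRNAs turn on 4 of them, and their gene sequences (GRCm39, sense strand, U written as T) are shown with the anticodon in capitals. They are mt-Tl1 at chrM:2676-2750 on the plus strand, which reads leucine codons, mt-Th at chrM:11546-11612 on the plus strand, which reads histidine codons, mt-Tp at chrM:15356-15422 on the minus strand, which reads proline codons, and mt-Ty at chrM:5260-5326 on the minus strand, which reads tyrosine codons.
mt-Tl1: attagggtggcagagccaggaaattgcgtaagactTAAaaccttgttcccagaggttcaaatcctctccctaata
mt-Th: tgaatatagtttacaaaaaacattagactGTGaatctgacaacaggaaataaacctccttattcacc
mt-Tp: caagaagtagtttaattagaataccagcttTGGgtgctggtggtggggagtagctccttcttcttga
mt-Ty: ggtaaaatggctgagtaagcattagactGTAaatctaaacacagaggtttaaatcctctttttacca
These genes lie between other genes with almost no spacing. mt-Tl1 begins at the base after the large-subunit rRNA gene mt-Rnr2 and ends at the base before mt-Nd1, and 18 of the 22 tRNA genes have a neighbour within 5 bases on both sides. mt-Tp and mt-Tf are not among them, since the genome is circular and 877 bases of the control region lie between the end of mt-Tp and the start of mt-Tf.

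Libraries held 13636095 to 17089831 counts with vehicle and 12048880 to 17384084 with S1P, with S1P replicate 2 the shallowest. Levels are given as CPM, the counts of a gene scaled to a library of fixed size, and a floor of 3 counts equals 0.173 to 0.249 CPM of the unscaled totals. The 7 markers of CD8 T cells were present in every library and summed to 1477 to 1646 CPM with vehicle and 1321 to 1425 with S1P. Among them Cd8a was at 207 to 250 CPM with vehicle and 132 to 144 with S1P. All S1P libraries were also below all vehicle libraries for Cd8b1 (101 to 146 and 73.2 to 86.0), Cd3d (125 to 142 and 107 to 117) and Cd3g (158 to 175 and 139 to 155). Cd3e (219 to 236 and 212 to 309), Trac and Lck overlapped between groups. The label names CD8+ T cells, but markers of other lymphocytes were present too. The 4 markers of CD4 T cells summed to 229 to 272 CPM with vehicle and 251 to 319 with S1P. Of these Cd4 (186 to 222 and 194 to 254) and Foxp3 overlapped between groups, while all S1P libraries were above all vehicle libraries for Zbtb7b (22.5 to 25.6 and 31.0 to 32.8) and Cd40lg (12.7 to 15.3 and 17.0 to 22.9). The 6 B cell markers summed to 980 to 1187 and 1042 to 1131. The myeloid list summed to at most 1.75 and the erythroid list to at most 1.02, and the NK cell list summed to 62.9 to 68.1 with vehicle and 31.9 to 43.8 with S1P. Nearly all of the NK sum was Eomes, which CD8+ T cells also express, and the NK genes Ncr1 and Klrb1c reached at most 1.05. In bulk RNA, fewer cells of a type and less RNA per cell cannot be told apart.

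Levels of the 13 mRNAs per kb of gene spanned more than 3 powers of 10 with vehicle, and position relative to the copy separated the mRNAs into a high and a low set. Counts were scaled by edgeR's TMM factors, which correct library size for the makeup of each library, and the other CPM values given here use this scaling. Per kb of gene, mt-Co1, the catalytic subunit of complex IV, was the highest at 7691 (vehicle mean). It was followed by mt-Nd1 (complex I) at 6123, mt-Cytb (complex III) at 5385 and mt-Nd6, the one mRNA of the other strand, at 4230. Below them came mt-Nd2 at 3917, mt-Nd5 at 3129 and mt-Nd4 at 1638. The value for mt-Nd6 may include reads from the opposite strand, since the strand setting of the counting is not given. The large-subunit rRNA mt-Rnr2 stood at 2891 and the small-subunit rRNA mt-Rnr1 at 855.

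The 6 mRNAs inside the copy lay between 3.06 (mt-Atp8) and 26.8 (mt-Nd3) per kb with vehicle. Their counts summed over the 6 libraries ran from 51 to 929, against 219256 to 1178466 for the 7 other mRNAs. Of all 150-base windows in mt-Co2, mt-Atp8 and mt-Atp6, 100% had an exact match in the nucleus. For mt-Co3, mt-Nd4l and mt-Nd3 the share was 91.5%, 79.1% and 44.3%, and for mt-Nd4 and mt-Co1 it was 57.4% and 29.9%. Mature transcripts of these genes are known to be abundant. How reads matching several places were treated in the counting is not given in the sources used here, so the low counts of these 11 genes, and the counts of mt-Nd4 and mt-Co1, describe only the reads that were assigned to them.

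**Figure D1:**
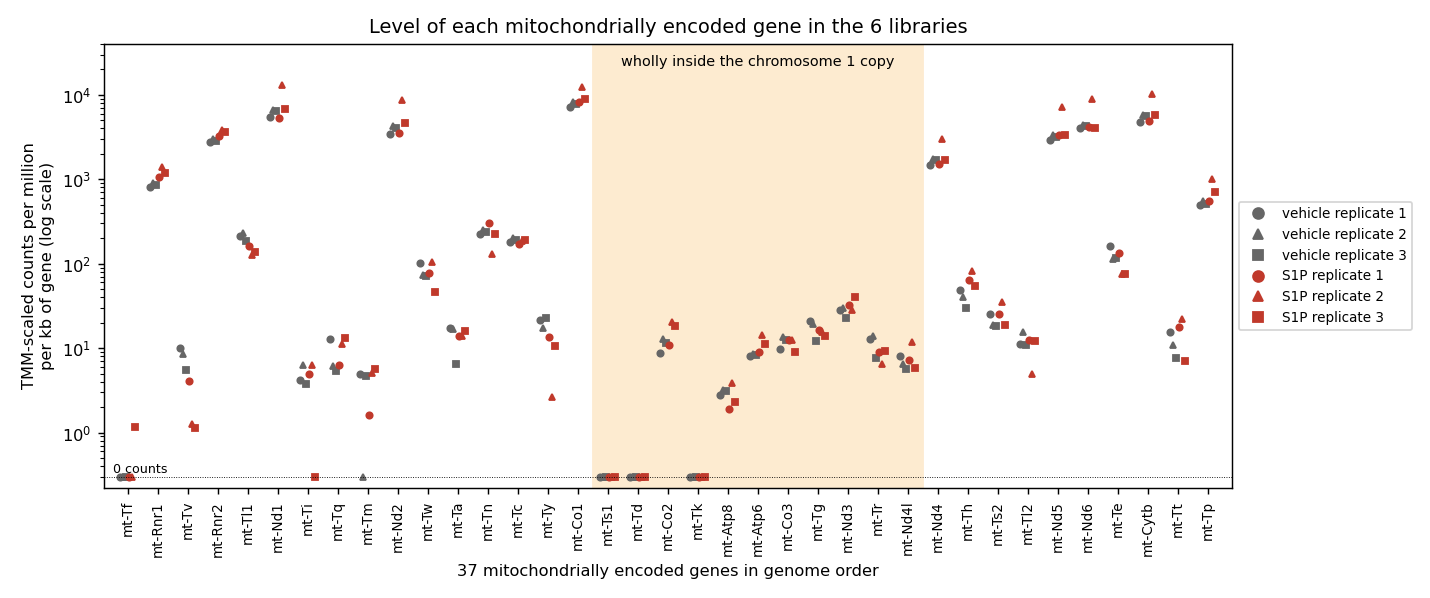
TMM-scaled CPM per kb of gene (log scale) for the 37 genes in genome order, with 1 marker per library, grey for vehicle and red for S1P, and genes with 0 counts on the dotted line. Inside the shaded region the mRNAs lie between 3.06 and 26.8 with vehicle on average, whereas mt-Nd4, the lowest of the other mRNAs and partly in the copy, is at 1638.

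The mitochondrial genes together held 4.10%, 4.64% and 4.49% of all counts in vehicle replicates 1, 2 and 3, and 4.49%, 7.80% and 4.93% in S1P replicates 1, 2 and 3. S1P replicate 2 was far above the rest (exact 95% interval 7.78% to 7.81%, counting error only), while S1P replicate 1 lay within the vehicle range, so the groups overlapped. The group means were 4.41% ± 0.282 and 5.74% ± 1.80 (SD, n = 3). On TMM-scaled CPM, the log2 difference of the summed genes was 0.37 with all libraries and 0.09 without S1P replicate 2. With library sizes and TMM factors taken from nuclear genes alone it was 0.36. Beside this, S1P replicate 2 had the fewest total counts, and its 50 most abundant nuclear genes held 13.7% of nuclear counts, against 13.2% and 13.3% in the other S1P libraries and 12.6% to 12.9% with vehicle. By a chi-square per gene between pairs of libraries, it differed from S1P replicates 1 and 3 by 31.4 and 17.9. Those differed from each other by 5.97, and the vehicle pairs by 3.77 to 3.97. This chi-square covers all tested genes, the mitochondrial ones included, so it is not a measure apart from the mitochondrial share. Malat1 plus Neat1 held 0.0459% to 0.0546% of counts with vehicle and 0.0558% to 0.0691% with S1P. The part of these measures in the mitochondrial share was not tested.

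Of the 37 genes, 28 passed the filter on low counts and were tested. A call needed an adjusted p no higher than 0.05 together with a log2 fold change of 0.3 or more in either direction (edgeR's quasi-likelihood test, adjusted over 13299 genes). Of the 28, 4 rose (mt-Rnr1, mt-Rnr2, mt-Th and mt-Tp) and 1 fell (mt-Tl1). Among all tested genes, 23.1% were called, 12.7% as higher and 10.4% as lower, so 5 of 28 is not a share above that of the whole table. Groups were separate for 7 of the 28, against 45.6% across the table. The median log2 fold change was 0.33 over the 28 genes and 0.01 over all tested genes. Without S1P replicate 2 the medians were 0.07 and 0.0034, and the called genes were mt-Rnr1, mt-Nd3 and mt-Tl1, where 20.8% of 13657 genes were called (11.6% higher, 9.15% lower).

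Both mitochondrial rRNAs were higher in each S1P-treated library than in any vehicle-treated library. Summed, they stood at 5172, 5634 and 5366 TMM-scaled CPM in vehicle replicates 1 to 3 and at 6223, 7400 and 6955 in S1P replicates 1 to 3. The means were 5391 ± 232 and 6859 ± 594 (SD, n = 3), a log2 difference of 0.34. Without S1P replicate 2 it was 0.29, so this difference did not rest on that library.

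mt-Rnr1 (ENSMUSG00000064337, chrM:70-1024), the rRNA of the small mitochondrial ribosomal subunit, was at 768, 868 and 813 CPM with vehicle and at 1012, 1317 and 1141 with S1P. The lowest S1P library was above the highest vehicle library. It rose by a log2 fold change of 0.50 (SE 0.10, edgeR adjusted p = 0.0031), which was called in each of the 6 fits that left out a library, at 0.40 to 0.59 (edgeR adjusted p 0.000504 to 0.0242).

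mt-Rnr2 (ENSMUSG00000064339, chrM:1094-2675), the rRNA of the large subunit, was at 4404, 4766 and 4552 CPM with vehicle and at 5211, 6083 and 5813 with S1P. Here too the groups were separate. Its log2 fold change of 0.32 (SE 0.09, edgeR adjusted p = 0.0195) lay close to the threshold. It was called in 1 of the 6 fits without a library, at 0.27 to 0.38 (edgeR adjusted p up to 0.0925), and stayed at 0.27 without S1P replicate 2.

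Reads assigned to rRNA of the cytosolic ribosome moved the other way in the same libraries. Rn18s-rs5, the annotated gene that collects such reads, held 0.546%, 0.561% and 0.513% of counts with vehicle and 0.286%, 0.203% and 0.195% with S1P. Both kinds of rRNA enter a poly(A)-selected library only in part, and the part of this difference in the mitochondrial rRNA result was not tested. Cytosolic ribosomal protein genes held 5.76% to 6.24% with vehicle and 6.28% to 6.86% with S1P.

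None of the 12 tested mitochondrial mRNAs was called in the main edgeR fit (5 had an unadjusted p under 0.05). DESeq2 called 2 of them, mt-Co1 and mt-Co2, as higher, and so did edgeR with a replicate block. With no filter on low counts, edgeR also called mt-Nd1, mt-Nd2, mt-Nd5, mt-Nd6 and mt-Cytb higher. Without S1P replicate 1 it called all of these together with mt-Nd4 and mt-Atp6. The 7 mRNAs that are not wholly in the copy summed to 34955, 40544 and 38884 CPM with vehicle and to 37482, 74718 and 42266 with S1P. S1P replicate 1 lay inside the vehicle range, S1P replicate 3 slightly above it, and S1P replicate 2 far above both. All 7 had a log2 fold change above 0, with a median of 0.45, and without S1P replicate 2 their median was -0.02.

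Of these 7, 5 encode subunits of complex I, the NADH dehydrogenase. mt-Nd5, part of its proton-pumping arm, was at 5327, 6077 and 5718 CPM with vehicle and at 6035, 13227 and 6088 with S1P. Apart from S1P replicate 2, at 2.32 times the vehicle mean, its values lay within or just above the vehicle range. Its log2 fold change was 0.57 (SE 0.24, edgeR adjusted p = 0.104) and 0.09 without that library.

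mt-Nd1, a subunit near the quinone-binding site, was at 5247, 6253 and 6079 CPM with vehicle and at 5089, 12388 and 6479 with S1P. S1P replicate 1 was the lowest library of all 6 for this gene and S1P replicate 2 the highest. A log2 fold change of 0.45 (SE 0.25, edgeR adjusted p = 0.201) became -0.02 without S1P replicate 2. S1P replicate 2 was also the highest library for mt-Nd2, mt-Nd4 and mt-Nd6. Their log2 fold changes with and without S1P replicate 2 were 0.52 and 0.05 for mt-Nd2, 0.34 and -0.03 for mt-Nd4, and 0.45 and -0.03 for mt-Nd6.

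mt-Co1 was the mRNA of the high set whose groups did not overlap. It was at 11132, 12590 and 11925 CPM with vehicle and at 12847, 19296 and 13930 with S1P, with S1P replicate 1 just above the highest vehicle library. The log2 fold change was 0.37 (SE 0.14, edgeR adjusted p = 0.0671), and without S1P replicate 2 it was 0.17. mt-Cytb, the core subunit of complex III, was at 5515, 6537 and 6428 CPM with vehicle and at 5561, 11845 and 6553 with S1P. Its log2 fold change fell from 0.37 (edgeR adjusted p = 0.225) to -0.02 without that library.

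The excess in S1P replicate 2 was unequal along the genome. Relative to the vehicle mean its level was 2.32 times for mt-Nd5, 2.24 for mt-Nd2, 2.14 for mt-Nd6 and 2.11 for mt-Nd1, then 1.92 for mt-Cytb, 1.84 for mt-Nd4 and 1.62 for mt-Co1. The rRNAs stood at 1.61 (mt-Rnr1) and 1.33 (mt-Rnr2) in that library. In S1P replicates 1 and 3 the rRNAs were at 1.24 and 1.40 (mt-Rnr1) and at 1.14 and 1.27 (mt-Rnr2), whereas the 7 mRNAs lay between 0.869 (mt-Nd1) and 1.17 (mt-Nd2). mt-Co1, at 1.08 and 1.17 in these libraries, was above all vehicle libraries as well, and the ranges of rRNAs and mRNAs met at 1.14 to 1.17.

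**Figure D2:**
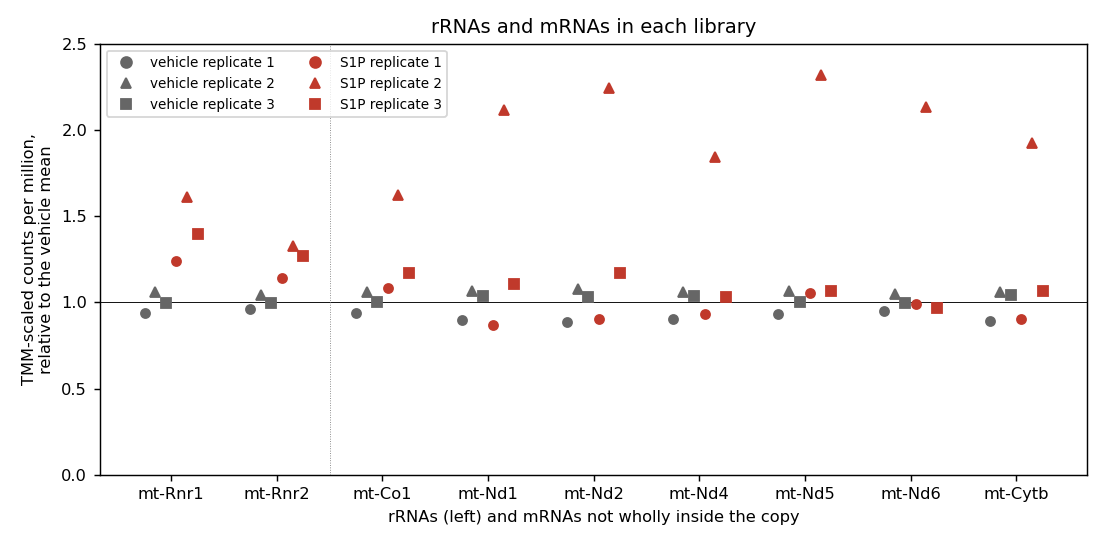
TMM-scaled CPM of the 2 rRNAs (left of the dotted line) and the 7 mRNAs not wholly in the copy, each divided by its vehicle mean, with 1 marker per library (grey vehicle, red S1P). S1P replicate 2, the red triangle, reaches 1.62 to 2.32 for the mRNAs, while S1P replicates 1 and 3 run from 0.869 to 1.17 for the mRNAs and from 1.14 to 1.40 for the rRNAs.

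**Figure D3:**
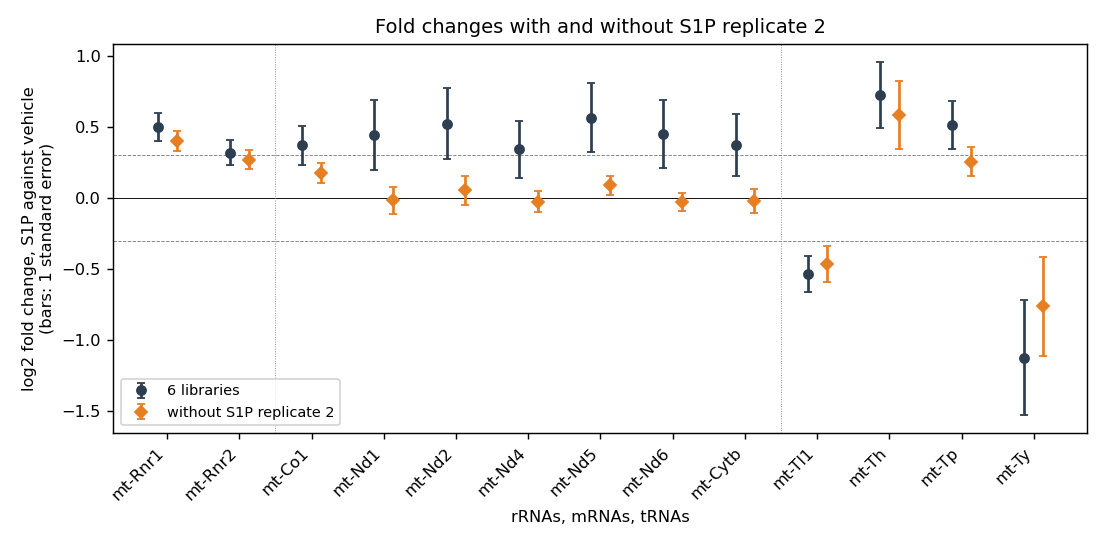
Log2 fold change of S1P against vehicle with 1 standard error, for the rRNAs, the 7 mRNAs and 4 tRNAs, from all 6 libraries (dark circles) and without S1P replicate 2 (orange diamonds). Dashed lines mark 0.3 in size. The mRNAs drop to between -0.03 and 0.17 without that library, whereas mt-Rnr1 stays at 0.40 and mt-Tl1 at -0.47.

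Among the mRNAs inside the copy, 5 of 6 were tested and their median log2 fold change was 0.34, or 0.26 without S1P replicate 2. mt-Atp6, the proton-channel subunit of ATP synthase, was at 5.46, 5.78 and 5.71 CPM with vehicle and at 6.06, 9.81 and 7.60 with S1P. The groups were separate, and the log2 fold change was 0.45 (SE 0.18, edgeR adjusted p = 0.0844). mt-Nd3, of complex I, was at 9.72, 10.4 and 7.89 with vehicle and at 11.4, 9.89 and 14.0 with S1P.

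For mt-Nd3, S1P replicate 2 was not the highest S1P library but the lowest. Its log2 fold change was 0.34 (SE 0.15, edgeR adjusted p = 0.122), and without that library 0.44 (edgeR adjusted p = 0.0361). The complex IV subunits did not pass the test either, with 0.57 for mt-Co2 (SE 0.22, edgeR adjusted p = 0.0772) and -0.06 for mt-Co3 (SE 0.17, edgeR adjusted p = 0.825). mt-Nd4l was at 0.26 (edgeR adjusted p = 0.531), and mt-Atp8, with 6 to 10 counts in a library, was not tested.

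The tRNAs together held 109, 110 and 99.8 CPM with vehicle and 109, 125 and 106 with S1P, and the groups overlapped, with a log2 difference of 0.08. Of 22 tRNAs, 14 were tested, with 6 log2 fold changes above 0 and 8 below and a median of -0.08. Mature tRNAs carry no poly(A) tail. Whether a count came from a mature tRNA, from an uncut precursor or from the end of a neighbour's read cannot be told apart, and the 4 highest (mt-Tp, mt-Tn, mt-Tl1 and mt-Tc) held 76.7% of the tRNA counts.

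mt-Tl1 (ENSMUSG00000064340), which joins mt-Rnr2 to mt-Nd1, fell. It was at 16.1, 17.1 and 13.9 CPM with vehicle and at 12.2, 9.63 and 10.3 with S1P. All 3 S1P libraries were below the lowest vehicle library. The fitted difference was -0.54 on the log2 scale (SE 0.13, edgeR adjusted p = 0.00894), and each of the 6 fits without a library called it, at -0.65 to -0.47.

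mt-Tp, at the other end of the genome beside the control region, was at 33.5, 37.5 and 34.5 CPM with vehicle and at 36.5, 67.5 and 47.8 with S1P. S1P replicate 1 lay below vehicle replicate 2, so the groups overlapped. The log2 fold change was 0.52 (SE 0.17, edgeR adjusted p = 0.0419). Without S1P replicate 2 it was 0.26 (edgeR adjusted p = 0.0775), and 1 of the 6 fits without a library called it.

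mt-Th, between mt-Nd4 and mt-Ts2, was at 3.28, 2.71 and 1.99 CPM with vehicle and at 4.32, 5.43 and 3.60 with S1P. The groups did not overlap, at 31 to 77 counts per library. The log2 fold change was 0.73 (SE 0.23, edgeR adjusted p = 0.0365), called in 2 of the 6 fits without a library, and 0.58 (edgeR adjusted p = 0.0843) without S1P replicate 2.

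mt-Ty, beside mt-Co1 on the opposite strand, was at 1.44, 1.17 and 1.54 CPM with vehicle and at 0.898, 0.175 and 0.705 with S1P. Every S1P library was lower than every vehicle library, but S1P replicate 2 held only 2 counts. The log2 fold change of -1.12 (SE 0.40, edgeR adjusted p = 0.0567) did not pass the threshold. mt-Te, for glutamate, was at 11.1, 7.90 and 7.95 with vehicle and at 9.26, 5.25 and 5.25 with S1P. Its value in S1P replicate 1 lay inside the vehicle range (log2 fold change -0.42, edgeR adjusted p = 0.189).

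The remaining tested tRNAs did not pass the test. mt-Tn, for asparagine, was at 15.9, 17.8 and 16.9 CPM with vehicle and at 21.3, 9.19 and 15.9 with S1P, so S1P replicate 2 was the lowest library here. mt-Tc, for cysteine, had a log2 fold change of -0.07 (SE 0.11) and mt-Tw, for tryptophan, of -0.13 (SE 0.25). The 6 others had vehicle means of 0.581 to 1.23 CPM. Their log2 fold changes were 0.23 for mt-Tq (glutamine), 0.09 for mt-Ta (alanine), -0.20 for mt-Tg (glycine), 0.33 for mt-Ts2 (serine), -0.27 for mt-Tl2 (leucine) and 0.44 for mt-Tt (threonine), with SEs of 0.31 to 0.45.

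The 8 other tRNAs were not tested. mt-Tv, for valine, which joins mt-Rnr1 to mt-Rnr2, had 12, 8 and 6 counts with vehicle and 5, 1 and 1 with S1P. The groups did not overlap, but in S1P replicates 2 and 3 the counts were under the floor of 3. mt-Tr, mt-Ti and mt-Tm had 60, 26 and 22 counts in all 6 libraries together and mt-Tf had 1. mt-Ts1, mt-Td and mt-Tk, all inside the copy, had 0 counts in every library. For reads that could be assigned to them, this allows up to 0.249 CPM at the depth of S1P replicate 2. It sets no limit on reads left unassigned because they match several places.

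Ratios within a library do not depend on its scaling, and they were chosen after the values had been seen, so no test was made. The rRNAs stood at 14.8, 13.9 and 13.8 counts per 100 counts of the 7 mRNAs with vehicle and at 16.6, 9.90 and 16.5 with S1P. S1P replicates 1 and 3 were above every vehicle library and S1P replicate 2 below. mt-Rnr2 had 5.73, 5.49 and 5.60 counts per mt-Rnr1 count with vehicle and 5.15, 4.62 and 5.09 with S1P, with all S1P libraries lower.

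mt-Tl1 had 3.66, 3.59 and 3.06 counts per 1000 counts of its neighbour mt-Rnr2 with vehicle and 2.34, 1.58 and 1.78 with S1P. The means were 3.44 ± 0.329 and 1.90 ± 0.392 (SD, n = 3), and the groups were separate. This follows from mt-Tl1 being lower and mt-Rnr2 higher in every S1P library, so it is not a further result. Against its other neighbour, mt-Nd1, the groups overlapped, at 2.29 to 3.07 per 1000 with vehicle and 0.778 to 2.39 with S1P.

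mt-Nd5 and mt-Nd6 lie on opposite strands and overlap by 14 bases. Their ratio was 2.55, 2.64 and 2.61 with vehicle and 2.77, 2.82 and 2.87 with S1P, higher in all 3 S1P libraries (2.60 ± 0.0445 against 2.82 ± 0.0523, SD, n = 3). Counts of mt-Nd5 were also set against mt-Cytb, and counts of mt-Tp against mt-Nd6. In both of these ratios the groups overlapped. The kit marks strand, but the strand setting of the counting is not given in the sources used here, so mt-Nd6 mRNA and reads from the opposite strand cannot be told apart.

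**Figure D4:**
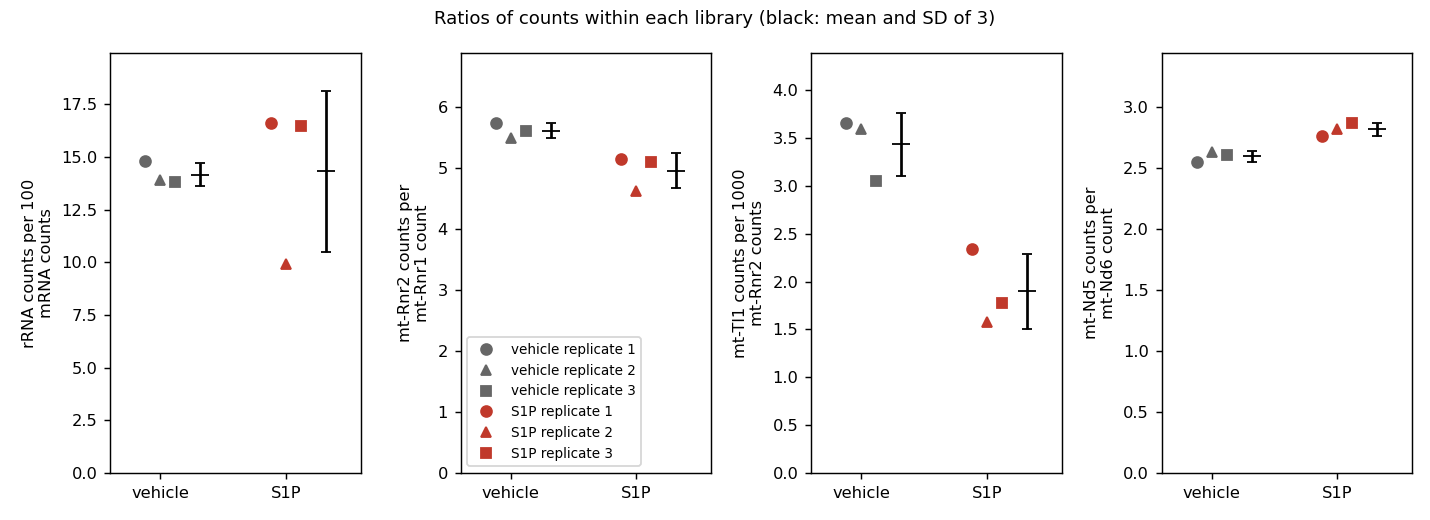
Counts of some mitochondrial genes per count of others, in 4 panels, for each library (grey vehicle, red S1P, axes from 0) with the mean and SD of 3 in black. The panels for mt-Rnr2 per mt-Rnr1, mt-Tl1 per mt-Rnr2 and mt-Nd5 per mt-Nd6 show separate groups. In the panel of rRNAs per mRNAs, S1P replicate 2 at 9.90 lies apart from S1P replicates 1 and 3 at 16.6 and 16.5. The ratios of mt-Tl1 to mt-Nd1, mt-Nd5 to mt-Cytb and mt-Tp to mt-Nd6, whose groups overlapped, are not drawn.

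The mean mix of the 13 mRNAs differed little between groups. mt-Co1 made up 31.2% ± 0.600 of their counts with vehicle and 31.0% ± 4.54 with S1P (SD, n = 3), where S1P replicate 2 had 25.8% and replicates 1 and 3 had 34.2% and 32.9%. mt-Nd4 made up 5.91% ± 0.0865 and 5.55% ± 0.0524, and all 3 S1P libraries were below all vehicle libraries. This also held for mt-Atp8, from its 6 to 10 counts. For mt-Nd1, mt-Nd2, mt-Nd5, mt-Nd6 and mt-Cytb the groups overlapped.

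A list of 70 nuclear genes covers replication, transcription, RNA processing, RNA stability and translation in mitochondria and regulators of nuclear genes for mitochondria. Of these, 69 were tested, 20 fell and 1 rose (Primpol), beside 10.4% of all tested genes that fell and 12.7% that rose. The median log2 fold change was -0.15 against 0.01 for all tested genes, 52 of the 69 were below 0, and without S1P replicate 2 the median was -0.17. Of the 20 that fell, 13 were called in each fit without a library. The list was chosen with earlier results of these data known, so these counts are a description only.

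In transcription, Polrmt, the mitochondrial RNA polymerase, was at 21.4, 21.1 and 23.0 CPM with vehicle and at 15.7, 13.5 and 15.8 with S1P. The groups were separate (log2 fold change -0.54, SE 0.10, edgeR adjusted p = 0.00242). The elongation factor Tefm also fell (log2 fold change -0.48) and was called in 2 of the 6 fits without a library. Tfam, which packs the DNA and starts transcription, was at -0.07 (edgeR adjusted p = 0.470).

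In RNA processing 7 of 19 genes fell. Elac2, which cuts tRNAs at the 3′ end, was at 90.8, 87.7 and 90.3 CPM with vehicle and at 59.2, 48.5 and 62.4 with S1P. All S1P libraries were lower, with a log2 fold change of -0.66 (SE 0.09). Prorp, the nuclease of mitochondrial RNase P, was at -0.37. Mrm3, which methylates the large-subunit rRNA, was at -0.70, and the tRNA-modifying enzymes Trmt5, Trmu, Mto1 and Gtpbp3 were at -0.42, -0.49, -0.35 and -0.53. Mto1 was called in 1 of the 6 fits without a library.

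In RNA stability and decay 7 of 15 genes fell. Lrpprc, which holds mitochondrial mRNAs in a polyadenylated pool, was at 197, 192 and 195 CPM with vehicle and at 146, 140 and 148 with S1P. The groups did not overlap (log2 fold change -0.43, SE 0.06, edgeR adjusted p = 0.000572). Its partner Slirp was assigned only 1.08 ± 0.227 CPM with vehicle and 0.336 ± 0.215 with S1P (SD, n = 3), at a log2 fold change of -1.59 (SE 0.44). S1P replicate 2, at 0.0876 CPM, lay under the floor of 3 counts. Without that library the log2 fold change was -1.23, and 4 of the 6 fits that each leave out a library called Slirp.

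The FASTK family of mitochondrial RNA-binding proteins supplied the other 5. Fastkd2, which is needed for the large-subunit rRNA, was at 60.1, 61.3 and 60.2 CPM with vehicle and at 33.7, 35.4 and 39.2 with S1P, a clear gap between groups (log2 fold change -0.75, SE 0.08, edgeR adjusted p = 8.1e-05). Tbrg4, also known as Fastkd4, was at -0.73, and Fastkd5, Fastkd3 and Fastkd1 were at -0.53, -0.46 and -0.45. The remaining listed member, Fastk, was at -0.0045 (edgeR adjusted p = 0.973). The poly(A) polymerase Mtpap was at -0.14 (edgeR adjusted p = 0.160) and the exonuclease Pnpt1 at 0.04 (edgeR adjusted p = 0.751).

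Other genes of the list fell too: Atad3a, a membrane protein near the nucleoid, at -0.53, Tufm, an elongation factor of mitochondrial translation, at -0.42, and the nuclear regulators Pprc1 and Esrra at -0.50 and -0.37. Esrra was called in 1 of the 6 fits without a library. Primpol, a primase-polymerase, rose with a log2 fold change of 0.44 (SE 0.10).

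A list of 80 nuclear subunits covers the complexes that hold mitochondrially encoded subunits and, beside them, complex II. Of these 77 were tested, and 23 fell and 2 rose, where 10.4% of all tested genes fell and 12.7% rose. Their median log2 fold change was -0.20, against 0.01 for all tested genes. The tested Nduf genes of this list, taken by symbol, are subunits of complex I apart from Ndufa4, which is assigned to complex IV and fell (log2 fold change -0.37). The median was -0.17 for the Nduf genes (11 of 38 fell and 2 rose), -0.21 for complex III (4 of 9 fell), -0.21 for the other complex IV subunits (1 of 10 fell) and -0.24 for ATP synthase (5 of 16 fell). Complex II, which has no mitochondrially encoded subunit, was at -0.34 (2 of 4 fell). The 12 tested mRNAs from the mitochondrial genome, with 0 called in the main fit, had a median of 0.41, or 0.02 without S1P replicate 2. The largest fall was that of Atp5mc1, a proton-ring subunit of ATP synthase, from 52.3 ± 1.61 to 31.7 ± 4.68 CPM (SD, n = 3, log2 fold change -0.72). The largest rise, in Ndufa12 of complex I (1.15), was called in 1 of the 6 fits without a library and its groups overlapped. The other rise, in Ndufv3 of complex I, went from 53.9 ± 5.10 to 99.8 ± 8.61 CPM (SD, n = 3, log2 fold change 0.89), with separate groups, and was called in all 6 such fits. Of the 23 that fell, 8 were called in every such fit. The count was 15 without S1P replicate 2, 12 without vehicle replicate 2 and 10 without vehicle replicate 3, and 7 rose without S1P replicate 1. This list too was chosen with earlier results of these data known, so its counts are a description only.

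**Figure D5:**
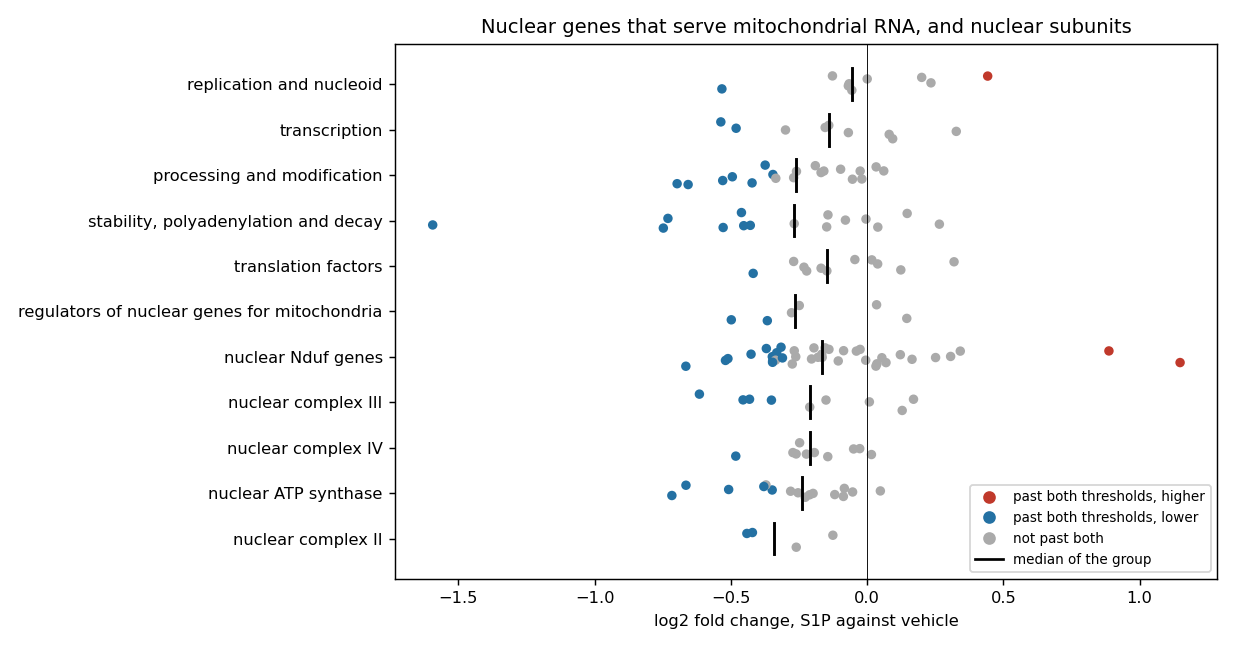
Log2 fold change of S1P against vehicle for each tested nuclear gene of the mitochondrial RNA machinery (upper 6 rows) and for the tested nuclear subunits by complex (lower 5 rows, the Nduf genes standing for complex I with Ndufa4 of complex IV among them), blue where lower and red where higher past both thresholds, with the median of each group as a black bar. Every group's median lies below 0, from -0.06 (replication and nucleoid) to -0.34 (complex II).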

How the data were processed

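For the authors' strand-specific, poly(A)-selected libraries, paired-end reads were trimmed (Trim Galore), mapped (STAR) and summed per gene (featureCounts). The submitters' processing notes name GRCm39 and DESeq2. What the authors deposited are whole-number counts per gene, not normalized. Annotation release, strand setting and treatment of reads with several matches are not given in the sources used here. Symbols and positions came from GENCODE vM39 (GRCm39), which holds 56323 of 56941 identifiers, and nuclear copies were found with blastn 2.17.0.

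Counts were scaled by TMM, filtered with filterByExpr and tested in R 4.3.3 with limma 3.58.1 and edgeR 4.0.16 (quasi-likelihood, 1 term for treatment). P-values of 13299 genes were adjusted by Benjamini-Hochberg. SEs are the log2 fold change divided by the root of F. The common biological coefficient of variation was 0.0826. Models were first tested on simulated data. Sums, ratios and shares are described without a test. All 37 genes are accounted for, and of the nuclear machinery those past both thresholds are named with Tfam, Polrmt, Lrpprc, Slirp, Mtpap and Pnpt1. The members and lists were chosen with earlier results of these data known. Alternatives were DESeq2 1.42.0, limma-voom, other scaling factors, other filters on low counts, a replicate block and leaving out each library. No libraries were duplicates.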

Additional observations from a re-analysis of the deposited data

How the results depend on the processing

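Counts of higher and lower genes over all tested genes stayed within 1.5 times of 1687 and 1384, but with total count only 1489 were higher and 1516 lower. Class sums stayed above 0 in every alternative run and varied in size. The log2 difference of the 7 mRNAs not wholly in the copy was 0.37, with 0.06 without S1P replicate 2 and 0.56 without S1P replicate 1. That of all 37 genes was 0.37, with 0.09 and 0.55, and that of the tRNAs 0.08, with 0.01 to 0.13. Of the mitochondrially encoded genes, 4 were called higher and 1 lower. With no filter on low counts 10 were called higher and 2 lower, limma-voom called 2 lower, and with a replicate block 6 were called higher and 3 lower. Leaving out each library gave 1 to 12 higher and 1 to 3 lower, and the 12 and 3 came without S1P replicate 1. mt-Rnr2 was also not called with total count only or with no filter (0.29), nor mt-Tp with limma-voom. With a library left out, the machinery list had 1 to 3 higher genes and 14 to 20 lower genes, and nuclear subunits 1 to 7 higher and 10 to 27 lower. DESeq2 and limma-voom called 1 nuclear subunit higher. Leaving out a library also turned the sign of 11 log2 fold changes that were not called, with ranges of -0.017 to 0.69 for mt-Nd1, -0.026 to 0.52 for mt-Nd4, -0.040 to 0.44 for mt-Nd4l, -0.027 to 0.64 for mt-Nd6, -0.022 to 0.58 for mt-Cytb, -0.19 to 0.073 for mt-Co3, -0.41 to 0.16 for mt-Tn, -0.51 to 0.0028 for mt-Tl2, -0.020 to 0.76 for mt-Tq, -0.37 to 0.11 for mt-Tw and -0.25 to 0.33 for mt-Ta. For mt-Nd1, mt-Nd4, mt-Nd4l, mt-Nd6, mt-Cytb, mt-Tn and mt-Tl2 that library was S1P replicate 2. Apart from the removal of a library, the cause was not tested. Whether same-numbered libraries share an animal or a culture is not given. In their departures from the group mean they correlated at 0.12, -0.006 and 0.05, and not every library correlated best with its own number. With 3 libraries per group such values cannot decide whether the libraries are paired. Few counts went with wide errors: mt-Ty, with 2 to 25 counts a library, had an SE of 0.40, against 0.10 for mt-Rnr1.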

Other observations

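The chromosome 1 copy itself carries 7 annotated pseudogenes, and reads were assigned to them. Atp6-ps, which matches mt-Atp6, had 425, 398 and 420 counts with vehicle and 449, 681 and 424 with S1P, more than mt-Atp6 itself, with 79 to 112 counts in a library. Gm28439, which covers the copied part of mt-Nd4, had 153, 133 and 139 counts with vehicle and 170, 247 and 126 with S1P. For both, S1P replicate 2 was the highest library although it had the fewest total counts. It was also the highest for Gm10222, Gm28661 and Gm29216, with 57, 311 and 190 counts. For the remaining pair in the same copy its unscaled counts were the lowest. Gm28437 had 191, 178 and 170 counts with vehicle and 174, 156 and 175 with S1P, and Gm28438 had 15, 14 and 25 with vehicle and 17, 9 and 27 with S1P. Since S1P replicate 2 had the fewest total counts, a lower level cannot be read from these. On chromosome 2, a copy of chrM:4441-7699 at 97.362% identity holds Gm13340, with 66, 71 and 86 counts with vehicle and 92, 121 and 108 with S1P. Whether these counts came from the nuclear copies or from mitochondrial RNA cannot be told apart.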
